A study of Mus musculus with 20 samples.

Results

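Genes for the nuclear-encoded subunits of the oxidative phosphorylation system were followed through male meiosis in WT and Cxxc1-null mouse cells. They were taken from the deposited expression table by symbol, as all genes named Nduf with a, b, c, s or v and a number, Sdha to Sdhd, Uqcr, Cox4 to Cox8, or Atp5, with the Ndufaf assembly factors left out. This gave 85 of 23235 genes in the table. By role they were 35 genes of complex I, 4 of complex II, 8 of complex III, 18 of complex IV and 15 of complex V, and 5 that share such a symbol but encode no subunit. Ndufa4, named for complex I, was counted with complex IV, of which its protein is now known to be part.

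The study compared cells of normal mice with Cxxc1-null cells. CXXC1 binds unmethylated CpG and belongs to the SETD1 complexes, which methylate histone H3 at lysine 4. All groups were cells sorted by flow cytometry from the testes of adult male mice of C57BL/6 background, with 500 cells in each library, and cDNA was made with Smart-seq2 from oligo-dT primers. The 12 RNA libraries formed 6 groups of 2: WT pachytene, Cxxc1-null pachytene, WT diplotene, Cxxc1-null diplotene, WT meiosis II and Cxxc1-null meiosis II. The sources used here do not give how or in which cells Cxxc1 was deleted, any Cre line, or other alleles of the WT mice. Nothing in the labels ties the 2 libraries of a group to different mice. The p-values therefore describe the spread among these libraries alone, and that spread may be technical. The mice's ages beyond adult are not stated, and 8 libraries of H3K4me3 chromatin were not analysed here.

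Oxidative phosphorylation makes ATP at the inner mitochondrial membrane. Complexes I and II pass electrons from NADH and succinate to ubiquinone, complex III passes them on to cytochrome c, complex IV reduces oxygen, and complex V, the ATP synthase, uses the proton gradient that complexes I, III and IV build. Most subunits are encoded in the nucleus and a few in mitochondrial DNA. Several small subunits of complex IV exist as isoforms that differ between tissues, and in mice Cox6b2, Cox7b2 and Cox8c encode forms known from the testis, beside the widely expressed Cox6b1, Cox7b and Cox8a. Spermatocytes are known to depend on mitochondrial respiration, and in these cells the X chromosome is silenced at the pachytene stage.

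Levels are given in FPKM, fragments normalised to transcript length and to all mapped fragments, as the authors deposited them. Genes of different length can be set side by side on this scale, less surely where genes are very short. Each library had 9838 to 11624 genes at 1 FPKM or more. Cxxc1 had 11.7 to 17.6 FPKM in the 6 WT libraries, 8.29 to 9.57 FPKM in the Cxxc1-null pachytene and diplotene libraries and 2.02 to 3.10 FPKM in the Cxxc1-null meiosis II libraries, below WT at each stage. A list of 19 spermatocyte markers summed to 9680.0 to 19422 FPKM in every library, with 18 or 19 of them at 1 FPKM or more in both libraries of each group. The 17 Sertoli cell markers in the table summed to 13.0 to 72.7 FPKM in pachytene and diplotene and to 332 to 459 FPKM in meiosis II, where 13 of 17 reached 1 FPKM in both libraries of either genotype, while Amh and Gata4 stayed under 1 FPKM in all libraries. The summed levels were 29.1 to 148 FPKM for 18 spermatogonial markers, 155 to 373 FPKM for 10 Leydig cell markers and 3.70 to 20.7 FPKM for 17 peritubular, endothelial and blood cell markers, of which 5, 2 and 11 were under 1 FPKM in all libraries. Spermatid markers, 24 genes, summed to 1557 to 3193 FPKM in pachytene and diplotene, 11658 and 15312 FPKM in WT meiosis II and 5724 and 9969 FPKM in Cxxc1-null meiosis II. WT pachytene replicate 2 was nearer WT diplotene than the other pachytene libraries were (r = 0.955 across 12956 genes, which are not independent, against 0.914 to 0.930), and Cxxc1-null diplotene replicate 2 nearer WT meiosis II (0.891 against 0.834 to 0.849). These 2 are the libraries that stand apart, as named in the results. In these pooled cells, fewer cells of a type and less RNA per cell cannot be told apart.

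Subunit genes had some of the highest FPKM values of these cells, most of all in pachytene. FPKM of very short genes is sensitive to the length model, so these levels are not exact transcript numbers. Together the 85 genes held 8.30% and 10.9% of all FPKM in the WT pachytene libraries, 6.43% and 7.08% in WT diplotene and 4.35% and 4.78% in WT meiosis II. In Cxxc1-null cells the shares were 9.35% and 10.8% in pachytene, 6.66% and 7.25% in diplotene and 5.02% and 6.18% in meiosis II. The stages did not overlap in either genotype, and in meiosis II both Cxxc1-null libraries lay above both WT libraries. Averaged over the 12 libraries, 17 genes were at 1000 FPKM or more, 50 between 100 and 1000 FPKM, 11 between 10 and 100 FPKM, 4 between 1 and 10 FPKM and 3 under 1 FPKM.

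Each complex had members of very different level. In complex I the highest mean was that of Ndufc1, a small subunit of the membrane arm, at 2280.0 FPKM, and the lowest that of the membrane arm subunit gene Ndufb11, at 5.24 FPKM. In complex II, which is also succinate dehydrogenase of the citric acid cycle, the range ran from 299.5 FPKM for Sdhb, the iron-sulfur subunit, to 90.5 FPKM for Sdha, the flavoprotein. Uqcrq, a small subunit, was highest in complex III at 1751 FPKM and the core protein gene Uqcrc2 lowest at 174 FPKM. Complex IV ran from 6983 FPKM for Cox8c to Cox8b, which was listed at 0 in all 12 libraries. Complex V ran from Atp5k, encoding subunit e, at 1539 FPKM to Atp5g2, one of 3 genes for subunit c of the rotor ring, at 93.5 FPKM.

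Summed by complex, the mean level was lower at each later stage in both genotypes, with no test made on sums. WT libraries of diplotene and meiosis II did not overlap in any complex, whereas in Cxxc1-null cells those of complexes I, III, IV and V did. In WT cells complex I had 28819 and 19535 FPKM in the pachytene libraries, 14109.8 and 15816 FPKM in diplotene and 9229.8 and 10818 FPKM in meiosis II. Complex IV had 45069 and 25537 FPKM, then 20418 and 22038 FPKM, then 12862 and 14482 FPKM at the same stages. In Cxxc1-null cells complex I had 25876 and 31292 FPKM in pachytene, 15082 and 18165.5 FPKM in diplotene and 11279 and 17144 FPKM in meiosis II, and complex IV 32960.4 and 40833 FPKM, then 19604 and 22047 FPKM, then 13828 and 20344 FPKM. As a share of the WT pachytene mean, the WT meiosis II sums stood at 41.5% in complex I, 54.8% in complex II, 38.5% in complex III, 38.7% in complex IV and 37.5% in complex V. Relative to the Cxxc1-null pachytene mean, the Cxxc1-null meiosis II sums stood, in the same order, at 49.7%, 58.7%, 44.6%, 46.3% and 48.2%. The 2 WT pachytene libraries differed much from each other: 69 of the 82 members with enough signal to be tested were higher in replicate 1, by a median of 0.52 on the log2(FPKM + 1) scale, against -0.07 over all genes tested. In Cxxc1-null meiosis II, 71 of 82 were higher in replicate 2, with a median of -0.51 for replicate 1 minus replicate 2, against 0.01 over all genes.

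**Figure D1:**
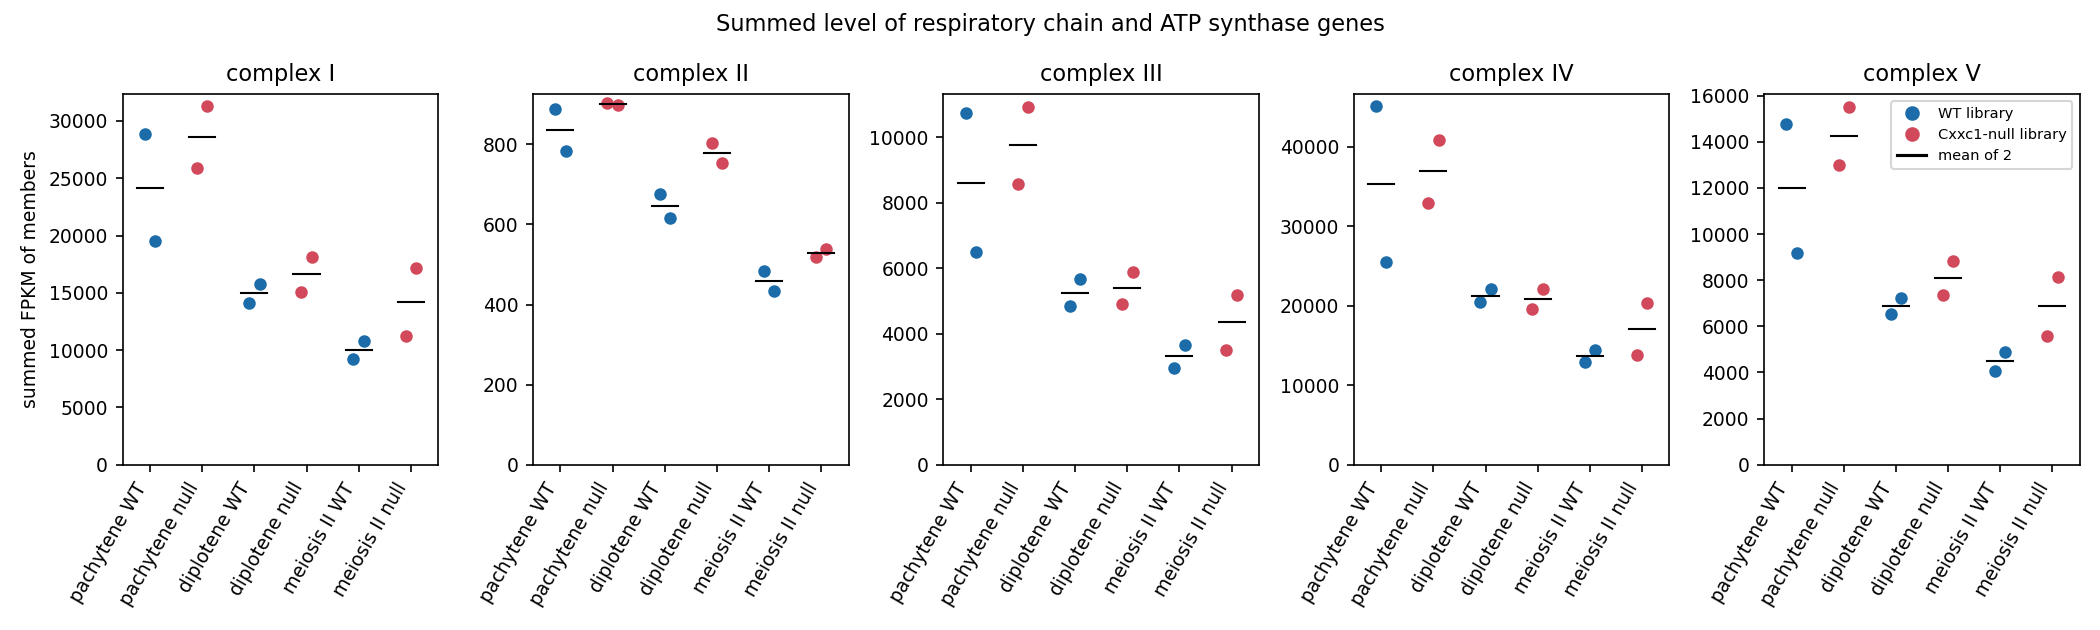
Summed FPKM of the members of each complex (y axis, FPKM) in each of the 12 libraries, by stage and genotype; points are libraries and lines are means of 2. The means were lower in meiosis II than in pachytene in all 5 complexes and both genotypes, and the 2 WT pachytene libraries lay far apart, at 45069 and 25537 FPKM in complex IV.

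Germ cell isoforms held most of the FPKM of their isoform pairs in every library. Cox8c, the testis form of the small subunit VIII, had 13213 and 7662 FPKM in WT pachytene, 6667 and 7077 FPKM in WT diplotene and 3881 and 4122 FPKM in WT meiosis II. It was the highest gene of the whole table in both WT pachytene libraries and ranked between 1 and 5 in all 12. Its widely expressed partner Cox8a had 51.9 and 36.6 FPKM in pachytene, 17.5 and 20.7 FPKM in diplotene and 53.4 and 45.4 FPKM in meiosis II of WT cells, so Cox8c made up 98.6% to 99.7% of the Cox8 sum over the 12 libraries. Cox7b2, the testis form of subunit VIIb, had 6548 and 2735 FPKM in WT pachytene, 2061 and 1892 FPKM in WT diplotene and 1306 and 1305 FPKM in WT meiosis II. The X-linked Cox7b had 2.76 and 1.11 FPKM in pachytene, 0.0893 and 0.166 FPKM in diplotene and 2.52 and 1.09 FPKM in meiosis II of WT cells, and Cox7b2 held at least 99.75% of the pair in every library.

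Neither of these 2 testis genes passed the test between genotypes, which was a linear model in limma on log2(FPKM + 1) with p-values adjusted over 12956 genes and a threshold of 0.05. In Cxxc1-null cells Cox8c had 8760.0 and 11389 FPKM in pachytene, 5696 and 6287 FPKM in diplotene and 3664 and 5379.5 FPKM in meiosis II, overlapping WT in pachytene and meiosis II and below it in diplotene. Averaged over stages the log2 difference was -0.02 ± 0.17, limma adjusted p = 0.953. Cox7b2 had 3965 and 5134, 1969 and 2113 and 1398 and 1797 FPKM in Cxxc1-null pachytene, diplotene and meiosis II, with a log2 difference over stages of 0.14 ± 0.20, limma adjusted p = 0.678.

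Cox6b2, the testis form of subunit VIb on the intermembrane side, was the 1 member that fell in Cxxc1-null cells when the stages were averaged. In pachytene it had 4049 and 2714 FPKM in WT and 1879 and 2454 FPKM in Cxxc1-null libraries. Diplotene libraries had 2126 and 2452 FPKM in WT and 1099 and 1289 FPKM in Cxxc1-null, and meiosis II libraries 1158 and 1558 FPKM in WT and 751 and 1179 FPKM in Cxxc1-null. Both Cxxc1-null libraries were below both WT libraries in pachytene and diplotene, while in meiosis II the higher Cxxc1-null library overlapped WT. The Cxxc1-null means were 64.1%, 52.2% and 71.1% of WT, and the log2 difference averaged over stages was -0.69 ± 0.17, limma adjusted p = 0.0225. At single stages it did not pass, with -0.63 ± 0.30, limma adjusted p = 0.489 in pachytene, -0.94 ± 0.30, limma adjusted p = 0.183 in diplotene and -0.51 ± 0.30, limma adjusted p = 0.305 in meiosis II. Under quantile normalization Cox6b2 passed in diplotene (-0.96, limma adjusted p = 0.0348) and in meiosis II (-0.75, limma adjusted p = 0.00974). The meiosis II difference was -0.19 without Cxxc1-null meiosis II replicate 1 and -0.84 without replicate 2, and the pachytene difference lay between -0.91 and -0.34 over the alternatives.

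The partner Cox6b1 had positive differences, which did not pass. It had 270.4 and 112 FPKM in WT and 211 and 253 FPKM in Cxxc1-null pachytene, 51.3 and 65.0 FPKM in WT and 77.9 and 100.2 FPKM in Cxxc1-null diplotene, and 51.9 and 63.7 FPKM in WT and 97.7 and 159 FPKM in Cxxc1-null meiosis II. The groups overlapped in pachytene and were apart in diplotene and meiosis II, and over stages the difference was 0.70 ± 0.22, limma adjusted p = 0.0556. This stage average passed without WT pachytene replicate 1 (0.92, limma adjusted p = 0.00872) or Cxxc1-null meiosis II replicate 1 (0.82, 0.0465), under quantile normalization (0.65, 0.0456) and with a common total (0.62, 0.0477). The pachytene difference turned to -0.23 without WT pachytene replicate 2 and was 1.04 without replicate 1, and the meiosis II difference of 1.10 passed without either WT pachytene library (limma adjusted p = 0.0284). The share of Cox6b2 in the pair was 93.7% and 96.0% in WT and 89.9% and 90.7% in Cxxc1-null pachytene, 97.6% and 97.4% against 93.4% and 92.8% in diplotene, and 95.7% and 96.1% against 88.5% and 88.1% in meiosis II. Both Cxxc1-null shares were below both WT shares at each stage, and Cox6b2 was in every library the main transcript of the pair. Over the alternative settings the stage-averaged difference of Cox6b2 stayed between -0.83 and -0.58, with limma adjusted p from 0.000487 to 0.137. The call was lost without Cxxc1-null pachytene replicate 1 (adjusted p = 0.0658), WT diplotene replicate 2 (0.0626), Cxxc1-null diplotene replicate 1 (0.0529) or WT meiosis II replicate 2 (0.0657).

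**Figure D2:**
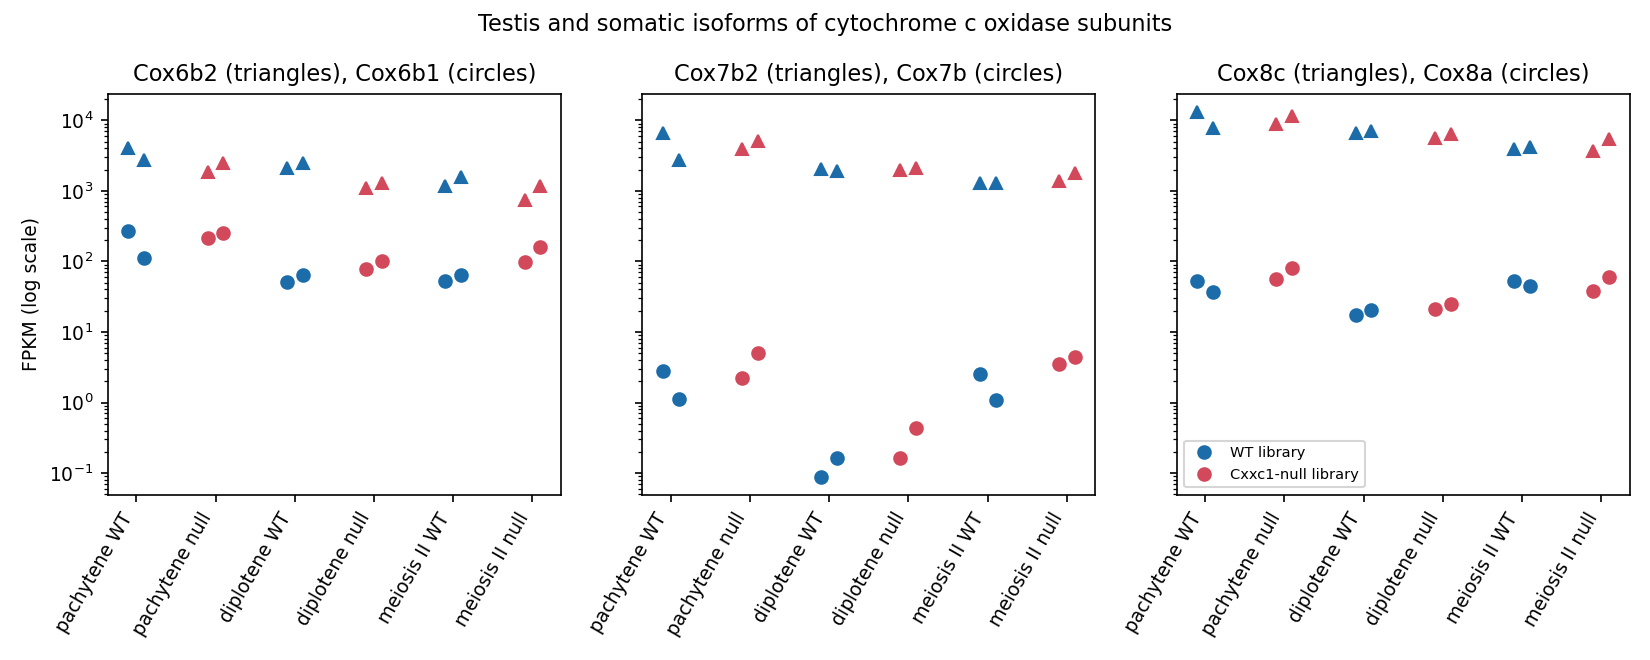
FPKM (y axis, log scale) of testis isoforms (triangles) and their widely expressed partners (circles) in each library, by stage and genotype. The Cox6b2 symbols of Cxxc1-null cells lie below those of WT cells in pachytene and diplotene, as at 1099 and 1289 against 2126 and 2452 FPKM in diplotene. Cox7b2 overlaps between genotypes in pachytene and diplotene. Cox8c overlaps in pachytene, but in diplotene its Cxxc1-null symbols also lie below those of WT.

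The 250 bases before the annotated start of these genes are shown because CXXC1 binds CG pairs, which are in capitals, and because the isoforms of a pair differ in them. They come from RefSeq on the GRCm38.p6 build, which is not the mm9 build of the expression values. The window of Cox6b1 is chr7:30626115-30626364 on the minus strand, that of Cox6b2 chr7:4753095-4753344 on the minus strand, that of Cox7b chrX:106015450-106015699 on the plus strand, that of Cox7b2 chr5:71548206-71548455 on the minus strand and that of Ndufa1, described further on, chrX:37191239-37191488 on the minus strand. Cox8c is named only.
Cox6b1: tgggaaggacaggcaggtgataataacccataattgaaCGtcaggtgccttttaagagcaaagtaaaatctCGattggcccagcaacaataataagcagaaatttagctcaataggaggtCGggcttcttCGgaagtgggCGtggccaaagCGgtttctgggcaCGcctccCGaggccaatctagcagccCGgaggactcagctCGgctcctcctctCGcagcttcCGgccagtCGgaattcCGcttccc
Cox6b2: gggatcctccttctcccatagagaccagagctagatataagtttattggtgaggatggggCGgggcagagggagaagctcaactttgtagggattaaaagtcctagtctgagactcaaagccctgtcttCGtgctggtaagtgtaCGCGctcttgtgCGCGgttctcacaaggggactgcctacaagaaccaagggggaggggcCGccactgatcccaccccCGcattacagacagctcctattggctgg
Cox7b: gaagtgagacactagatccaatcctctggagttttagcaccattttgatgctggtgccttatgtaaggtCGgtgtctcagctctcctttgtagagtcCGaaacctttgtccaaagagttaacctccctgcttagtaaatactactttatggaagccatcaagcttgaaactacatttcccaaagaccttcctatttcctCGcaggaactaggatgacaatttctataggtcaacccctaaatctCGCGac
Cox7b2: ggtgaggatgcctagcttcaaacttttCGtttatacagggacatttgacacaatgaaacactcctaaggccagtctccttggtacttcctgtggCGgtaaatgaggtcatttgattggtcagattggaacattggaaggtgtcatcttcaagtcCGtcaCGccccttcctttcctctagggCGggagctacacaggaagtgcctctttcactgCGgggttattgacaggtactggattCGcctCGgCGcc
Ndufa1: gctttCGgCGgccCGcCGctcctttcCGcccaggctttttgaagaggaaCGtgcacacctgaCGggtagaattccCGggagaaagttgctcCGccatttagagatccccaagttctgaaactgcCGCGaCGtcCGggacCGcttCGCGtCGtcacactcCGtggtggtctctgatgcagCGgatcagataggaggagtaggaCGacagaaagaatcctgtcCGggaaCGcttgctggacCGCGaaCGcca
These windows hold 14 CG pairs in Cox6b1 and 8 in Cox6b2, 5 in Cox7b and 9 in Cox7b2, and 25 in Ndufa1.

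A promoter window of 300 bases, with 50 bases after the start added, was found for 69 of the 85 members. The median number of CG pairs in it was 19 among the members (2 to 39), 19 among 10224 tested genes with a promoter and 7 among all 27025 genes with one. Motifs of 3 factors known to act at genes of this system were searched on both strands: GCGCNTGCG for NRF1, CCGGAAG for ETS factors such as GABPA, and AAGATGGC for YY1. NRF1's letters were in 24 of 69 member windows (34.8%), against 14.9% of tested genes. ETS letters were in 16 (23.2%, against 19.8%), and YY1 letters in 11 (15.9%, against 5.32%). Of the 5 windows printed, 1 held any of the 3, that of Cox6b1, with the ETS letters. These are matches of letters, with no test, and no binding was measured.

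Other isoform families leaned to one member. Cox4i1, the ubiquitous form of subunit IV, had 3166 and 2698 FPKM in pachytene, 2575 and 2832 FPKM in diplotene and 1487 and 1555 FPKM in meiosis II of WT cells, and held 99.98% to 100% of its pair, since Cox4i2 was listed at 0 in 10 of 12 libraries. Cox6a1 held 99.8% to 100% of its pair with the muscle and heart form Cox6a2. Cox7a2 held 99.5% to 100% of its pair with the muscle form Cox7a1, which had 3.08 and 1.49 FPKM in pachytene, 0 and 0.813 FPKM in diplotene and 3.97 and 1.64 FPKM in meiosis II of WT cells. Cox4i2, Cox6a2 and Cox8b were the 3 members that did not reach 1 FPKM in 2 libraries and were not tested.

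Subunit c of complex V, whose 3 genes encode the same mature protein, was less one-sided and shifted with stage. In WT cells Atp5g3 had 819 and 477 FPKM in pachytene, 220.4 and 204 FPKM in diplotene and 62.4 and 51.7 FPKM in meiosis II. Atp5g1 had 289 and 239.9 FPKM in pachytene, 87.2 and 127 FPKM in diplotene and 76.3 and 96.5 FPKM in meiosis II, and Atp5g2 275 and 175 FPKM in pachytene, 34.5 and 29.2 FPKM in diplotene and 27.7 and 33.0 FPKM in meiosis II. The share of Atp5g3 in the sum of the 3 was 59.2% and 53.5% in WT pachytene, 64.4% and 56.5% in WT diplotene and 37.5% and 28.6% in WT meiosis II, where Atp5g1 held 45.9% and 53.2%. In Cxxc1-null meiosis II Atp5g3 held 41.7% and 39.5%, Atp5g1 32.9% and 35.1%, and Atp5g2 25.4% and 25.3%, the last against 16.6% and 18.2% in WT.

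At least 1 subunit gene of each complex fell from pachytene to diplotene in WT cells. By limma over all 12 libraries, 1 of 82 members rose and 23 fell, at shares of 1.22% and 28.0%, where 9.08% of all genes tested rose and 17.4% fell. The median log2 difference of the members was -0.59, against -0.11 over all genes. It became -0.36 with a common median (0.02 over all genes) and -0.38 under quantile normalization (0.04). By complex, 7 of 35 genes of complex I, 1 of 4 of complex II, 3 of 8 of complex III, 6 of 15 of complex IV and 5 of 15 of complex V fell. The remaining gene that fell, Cox4nb, and the 1 that rose, Ndufa4l2, encode no subunit. The members' count depended on single libraries. It was 6 without WT pachytene replicate 1, 46 without WT pachytene replicate 2, 6 and 5 without WT diplotene replicate 1 and 2, 15 without either WT meiosis II library, 41 without both libraries that stand apart and 0 in a fit of these 4 libraries alone. With a common median of all libraries 3 rose and 10 fell.

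The largest falls were in a few genes of complexes I, IV and V. Ndufa1, a small membrane arm subunit of complex I, had 816 and 309 FPKM in WT pachytene and 49.7 and 56.2 FPKM in WT diplotene, a log2 difference of -3.22 ± 0.38, limma adjusted p = 0.000889. Atp5g2 went from 275 and 175 to 34.5 and 29.2 FPKM (-2.75 ± 0.29, limma adjusted p = 0.000689), and Ndufa4 from 285 and 119.5 to 27.9 and 41.3 FPKM (-2.41 ± 0.40, limma adjusted p = 0.00328). Groups did not overlap in any of the 3 genes. Atp5l, encoding subunit g of complex V, went from 1178 and 488 to 217 and 256 FPKM (-1.68 ± 0.40, limma adjusted p = 0.0142). Ndufa1, Atp5g2, Ndufa4 and Atp5g3 (-1.56 ± 0.28) passed the test in all 12 fits that left out 1 library, and in the fit of these 4 libraries alone their limma adjusted p lay between 0.0629 and 0.0764.

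In Cxxc1-null cells the same step had 3 members higher and 27 lower, where 11.9% of all genes tested rose and 17.4% fell, with a median of -0.70 among the members, against -0.09 over all genes. The members' median became -0.37 under quantile normalization (0.01 over all genes) and -0.44 with a common total (0.09). Ndufa1 went from 456 and 577 to 60.4 and 75.4 FPKM (-2.91 ± 0.38, limma adjusted p = 0.00221), Ndufa4 from 198 and 278 to 40.5 and 41.0 FPKM (-2.50 ± 0.40) and Atp5g2 from 171 and 195 to 31.2 and 41.6 FPKM (-2.31 ± 0.29). Cox7b also fell, from 2.25 and 5.03 to 0.165 and 0.441 FPKM (-1.77 ± 0.37, limma adjusted p = 0.00896). The core protein gene Uqcrc1 of complex III rose, from 309 and 225 to 572 and 539 FPKM (1.07 ± 0.31, limma adjusted p = 0.0293). The count of 30 was 18 and 3 without Cxxc1-null pachytene replicate 1 and 2, 5 and 11 without Cxxc1-null diplotene replicate 1 and 2, and 28 without both libraries that stand apart. With a common median 5 rose and 14 fell.

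Between diplotene and meiosis II in WT cells 4 members rose and 24 fell, where 26.1% of all genes tested rose and 18.9% fell. The median difference of the members was -0.58, against 0.02 over all genes, and -0.92 with a common median. Over the same step the summed spermatid markers went from 1653 and 2250.3 to 11658 and 15312 FPKM, and their part in the members' falls was not tested. Atp5g3 went from 220.4 and 204 to 62.4 and 51.7 FPKM (-1.88 ± 0.28, limma adjusted p = 0.00035), Ndufc2 from 230.4 and 247 to 82.4 and 79.8 FPKM (-1.55 ± 0.27, limma adjusted p = 0.00106) and Ndufa3 from 617 and 805 to 216 and 273 FPKM (-1.54 ± 0.35, limma adjusted p = 0.00495), the latter pair being accessory subunits of the membrane arm of complex I. Ndufb6, another of that arm, went from 461 and 443 to 189.7 and 192 FPKM (-1.24 ± 0.27, limma adjusted p = 0.00357). No library of meiosis II reached a diplotene library in these genes. Of the 28 genes called, 11 passed in each of the 12 fits without 1 library, among them Sdhc, a membrane anchor of complex II (-0.91 ± 0.16), Uqcrc2 (-0.97 ± 0.22) and Ndufs8, a core iron-sulfur subunit of complex I (-1.22 ± 0.21). The count was 15 without WT meiosis II replicate 1, 17 and 16 without WT diplotene replicate 1 and 2, and 49 with a common median, which moved the median of all genes from 0.02 to -0.24.

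The 4 members that rose were low genes, 3 of them the lower form of an isoform pair. Ndufb11 went from 0.548 and 0.916 to 5.97 and 4.63 FPKM (1.86 ± 0.37, limma adjusted p = 0.00223), Cox8a from 17.5 and 20.7 to 53.4 and 45.4 FPKM (1.32 ± 0.28, limma adjusted p = 0.00303), Cox7b from 0.0893 and 0.166 to 2.52 and 1.09 FPKM (1.27 ± 0.37, limma adjusted p = 0.017) and Cox7a1 from 0 and 0.813 to 3.97 and 1.64 FPKM (1.43 ± 0.47, limma adjusted p = 0.0305). The summed Sertoli cell list was also higher after the same step, from 13.0 to 22.6 FPKM in the 4 diplotene libraries to 332 to 459 FPKM in the 4 meiosis II libraries. Its part in the rise of these genes was not tested.

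In Cxxc1-null cells the step to meiosis II had 4 members higher and 14 lower, where 25.3% of all genes tested rose and 18.8% fell, and the members' median was -0.27. The summed spermatid markers went from 1557 and 2773 to 5724 and 9969 FPKM, and their part was not tested here either. The 4 that rose were again Ndufb11 (2.61 ± 0.37, limma adjusted p = 0.000408), Cox7b (1.93 ± 0.37), Cox7a1 (1.40 ± 0.47) and Cox8a (1.01 ± 0.28). Ndufa3 fell from 504 and 684 to 171 and 333 FPKM (-1.29 ± 0.35), Atp5g3 from 189 and 207 to 69.7 and 104 FPKM (-1.21 ± 0.28) and Ndufc2 from 220.0 and 232 to 101 and 129.5 FPKM (-0.97 ± 0.27). Sdhd, the other membrane anchor of complex II, fell from 144 and 149 to 58.8 and 69.1 FPKM (-1.19 ± 0.22, limma adjusted p = 0.00181). In WT cells Sdhd went from 134 and 118 to 117 and 92.2 FPKM, which did not pass (-0.28 ± 0.22, limma adjusted p = 0.343). This step alone was not tested between genotypes, and the interaction test over all 3 stages is given further on. The count of 18 was 11 and 10 without Cxxc1-null diplotene replicate 1 and 2 and 10 without Cxxc1-null meiosis II replicate 1.

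**Figure D3:**
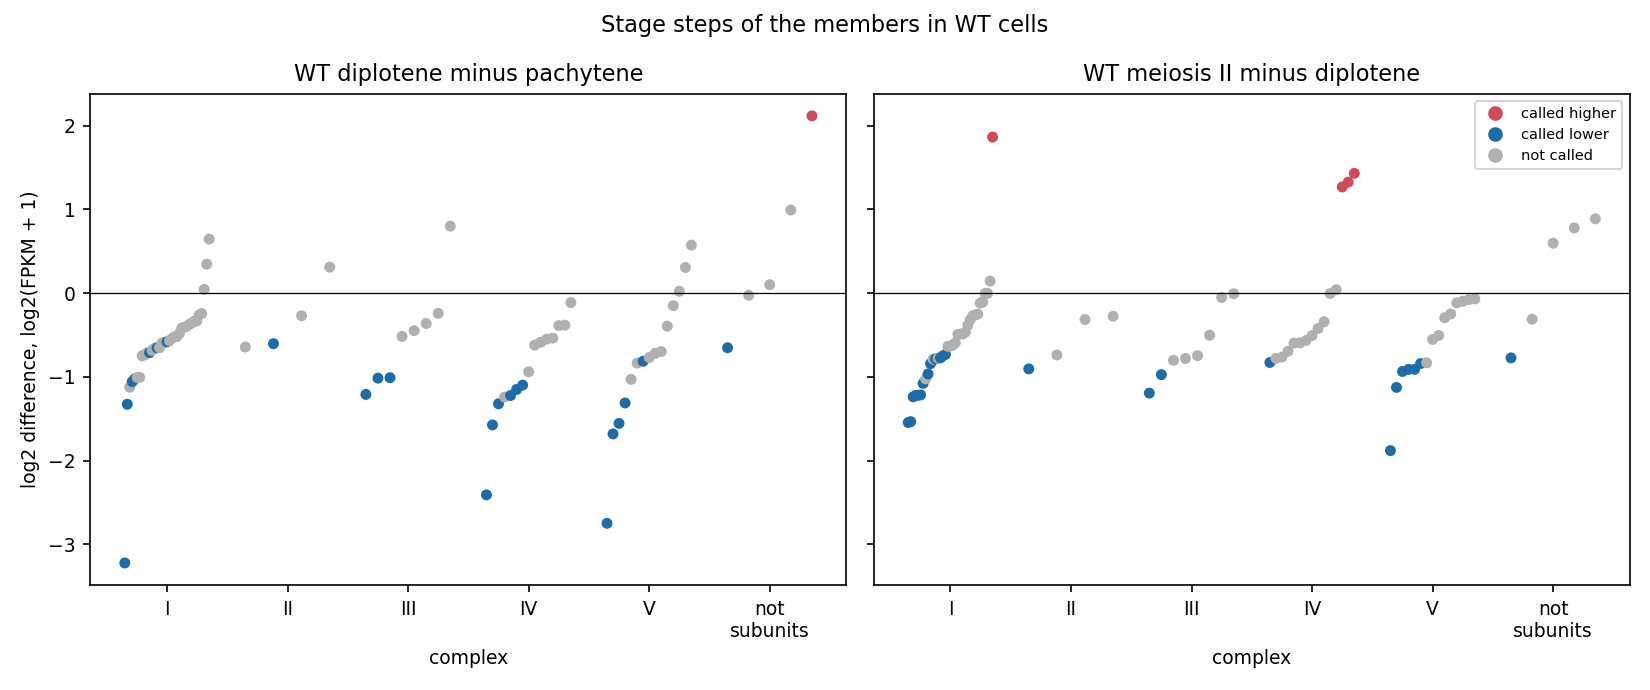
Log2 difference (y axis, log2(FPKM + 1) scale) of each of the 82 members tested in WT cells, by complex, for diplotene minus pachytene and for meiosis II minus diplotene; colours mark genes called higher or lower and points are genes. Most points lie below 0 at both steps, with 23 called lower and 1 higher at the first and 24 lower and 4 higher at the second.

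Few subunit genes differed between Cxxc1-null and WT cells at any single stage. In pachytene 0 of 82 members passed limma, 3 having an unadjusted p under 0.05, where 0.34% of all genes tested rose and 0.0154% fell. In diplotene 0 passed and 5 had an unadjusted p under 0.05, where 0.702% rose and 0.0849% fell. The members' median difference was 0.23 in pachytene and 0.20 in diplotene, against 0.04 and 0.09 over all genes. Between the 2 WT pachytene libraries, replicate 1 minus replicate 2 had a median of 0.52 among the members. Quantile normalization gave a pachytene median of 0.07 and a common total one of 0.12, and a common median gave 0.06 in diplotene. In meiosis II 3 members rose and 0 fell, where 6.14% of all genes tested rose and 4.35% fell. The members' median was 0.48, against 0.02 over all genes. It became 0.35 under quantile normalization (-0.002 over all genes), 0.37 with a common total (-0.07) and 0.54 with a common median (0.07). Between the 2 Cxxc1-null meiosis II libraries, replicate 1 minus replicate 2 had a median of -0.51 among the members.

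The 3 genes that rose in Cxxc1-null meiosis II all belong to complex I. Ndufa9, an accessory subunit near the ubiquinone site, had 163 and 167 FPKM in WT and 285 and 301 FPKM in Cxxc1-null (0.83 ± 0.22, limma adjusted p = 0.0421). Ndufs3, a core subunit of the hydrophilic arm, had 175 and 186 FPKM in WT and 261 and 316 FPKM in Cxxc1-null (0.67 ± 0.18, limma adjusted p = 0.0431), and Ndufb11 had 5.97 and 4.63 FPKM in WT and 16.1 and 14.4 FPKM in Cxxc1-null (1.37 ± 0.37, limma adjusted p = 0.0432). No Cxxc1-null library overlapped WT in any of the 3. Ndufb11 is X-linked, and the 407 X genes tested had a median difference of 0.45 in meiosis II, with 60 higher and 10 lower, against 0.01 on autosomes, where 728 of 12445 were higher. In pachytene and diplotene the X medians were 0.43 and 0.34, against 0.03 and 0.08 on autosomes. Their adjusted p lay close to the threshold, and none of the 3 passed without either meiosis II library of either genotype, with a pseudocount of 0.1, with a common total or in a separate fit, nor without either WT diplotene library. The count of members ranged from 0 to 8 without 1 library, being 8 without either WT pachytene library. Under quantile normalization 10 rose and 3 fell, and with a common total 1 rose and 1 fell. Summed spermatid markers were at 11658 and 15312 FPKM in WT and 5724 and 9969 FPKM in Cxxc1-null meiosis II, and their part in these differences was not tested.

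Averaged over the 3 stages, 10 members rose and 1 fell in Cxxc1-null cells. The share that rose, 12.2%, lay near the 11.5% of all genes tested that rose, and 5.13% of all genes fell. By complex, 5 of 35 genes of complex I, 1 of 4 of complex II and 4 of 15 of complex V rose, and none of 8 of complex III or of 15 of complex IV, in which Cox6b2 fell. The members' median was 0.29, against 0.05 over all genes, and it was 0.20 to 0.24 under the 3 other scalings. None of the 11 passed when the libraries of a genotype with the same replicate number were joined over stages, which leaves 4 units, with limma adjusted p between 0.0643 and 0.366. Single libraries moved the count from 11 to 30 without WT pachytene replicate 1, 18 without Cxxc1-null meiosis II replicate 1, 2 without WT diplotene replicate 2, 6 without WT diplotene replicate 1 and 4 or 5 without any other except WT pachytene replicate 2, and it was 3 without both libraries that stand apart. The replicate number as a block gave 18.

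In complex I 5 of 35 genes were called higher over stages, a share of 14.3%, near the 11.5% of all genes tested. Ndufa9 had 315 and 241 FPKM in WT and 457 and 329 FPKM in Cxxc1-null pachytene and 257 and 211 FPKM in WT and 359.8 and 327 FPKM in Cxxc1-null diplotene, above WT at each stage (0.63 ± 0.13, limma adjusted p = 0.0106). Ndufb11 had 3.39 and 1.74 FPKM in WT and 4.15 and 7.51 FPKM in Cxxc1-null pachytene and 0.548 and 0.916 FPKM in WT and 0.913 and 2.71 FPKM in Cxxc1-null diplotene, where the groups overlapped by a small margin (0.98 ± 0.21, limma adjusted p = 0.0141). These 2 genes passed in all 12 fits without 1 library. Ndufv2, a core iron-sulfur subunit of the NADH-oxidising module, had 913 and 614 FPKM in WT and 1048 and 1152 FPKM in Cxxc1-null pachytene, 574 and 472 FPKM in WT and 749 and 730.1 FPKM in Cxxc1-null diplotene and 435 and 433 FPKM in WT and 617 and 750.1 FPKM in Cxxc1-null meiosis II (0.57 ± 0.13, limma adjusted p = 0.0172). Ndufs5, an accessory subunit on the intermembrane side, had a difference of 0.58 ± 0.15, limma adjusted p = 0.0283, and Ndufa10, an accessory subunit of the membrane arm, 0.36 ± 0.11, limma adjusted p = 0.0497. The Ndufa10 call was lost with a pseudocount of 0.1, with at least 5 FPKM and under all 3 other scalings. In all 5 except Ndufb11, whose diplotene libraries overlapped, both Cxxc1-null libraries were above both WT libraries at each stage.

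In complex V the genes of the alpha subunit of the catalytic head and of 3 subunits of the peripheral stalk were called higher over stages. The calls of these 4 genes, and that of Sdhb given below, were lost with a common median of all libraries. They were also lost with stages joined by replicate number. Atp5f1, encoding stalk subunit b, had 506 and 339.6 FPKM in WT and 585 and 547 FPKM in Cxxc1-null pachytene, 281 and 198 FPKM in WT and 372 and 308 FPKM in Cxxc1-null diplotene and 133 and 117 FPKM in WT and 204 and 188 FPKM in Cxxc1-null meiosis II (0.54 ± 0.14, limma adjusted p = 0.0298). Atp5h, encoding stalk subunit d, had 478 and 517 FPKM in WT and 681 and 1031 FPKM in Cxxc1-null meiosis II (0.54 ± 0.16, limma adjusted p = 0.0445 over stages), and Atp5o, encoding the OSCP subunit, 244 and 363 FPKM in WT and 432 and 644 FPKM in Cxxc1-null meiosis II (0.50 ± 0.15, limma adjusted p = 0.046 over stages). For Atp5a1, encoding the alpha subunit, meiosis II libraries had 116 and 92.9 FPKM in WT and 194 and 146 FPKM in Cxxc1-null (0.51 ± 0.14, limma adjusted p = 0.0356 over stages). Cxxc1-null libraries were above WT in meiosis II in all 4 genes, and in pachytene the Atp5a1 groups overlapped, at 173 and 215 FPKM in WT and 261 and 202 FPKM in Cxxc1-null. In complex II Sdhb had 334 and 301 FPKM in WT and 381 and 398 FPKM in Cxxc1-null pachytene, 263 and 262 FPKM in WT and 339 and 336 FPKM in Cxxc1-null diplotene and 214 and 208 FPKM in WT and 251 and 307 FPKM in Cxxc1-null meiosis II (0.35 ± 0.10, limma adjusted p = 0.0407).

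Counting by order alone, 14 of the 82 members had both Cxxc1-null libraries above both WT libraries at all 3 stages, where 8.24% of all genes tested did, and 0 had them below at all 3, where 3.91% did. The 14 were Ndufa6, Ndufa7, Ndufa9, Ndufa10, Ndufb5, Ndufb8, Ndufb9, Ndufb10, Ndufs3, Ndufs5, Ndufv2, Sdhb, Atp5f1 and Atp5h, of which 11 belong to complex I. Cox6b2 is not among genes below at all stages because of its overlap in meiosis II. The difference between genotypes was not shown to change with stage: 0 of 82 members passed the limma test of the genotype by stage interaction, 1 with an unadjusted p under 0.05, where 0.054% of all genes passed. That gene was Sdhd, which had 117 and 92.2 FPKM in WT and 58.8 and 69.1 FPKM in Cxxc1-null meiosis II and overlapping groups in pachytene, with an interaction limma adjusted p of 0.476.

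**Figure D4:**
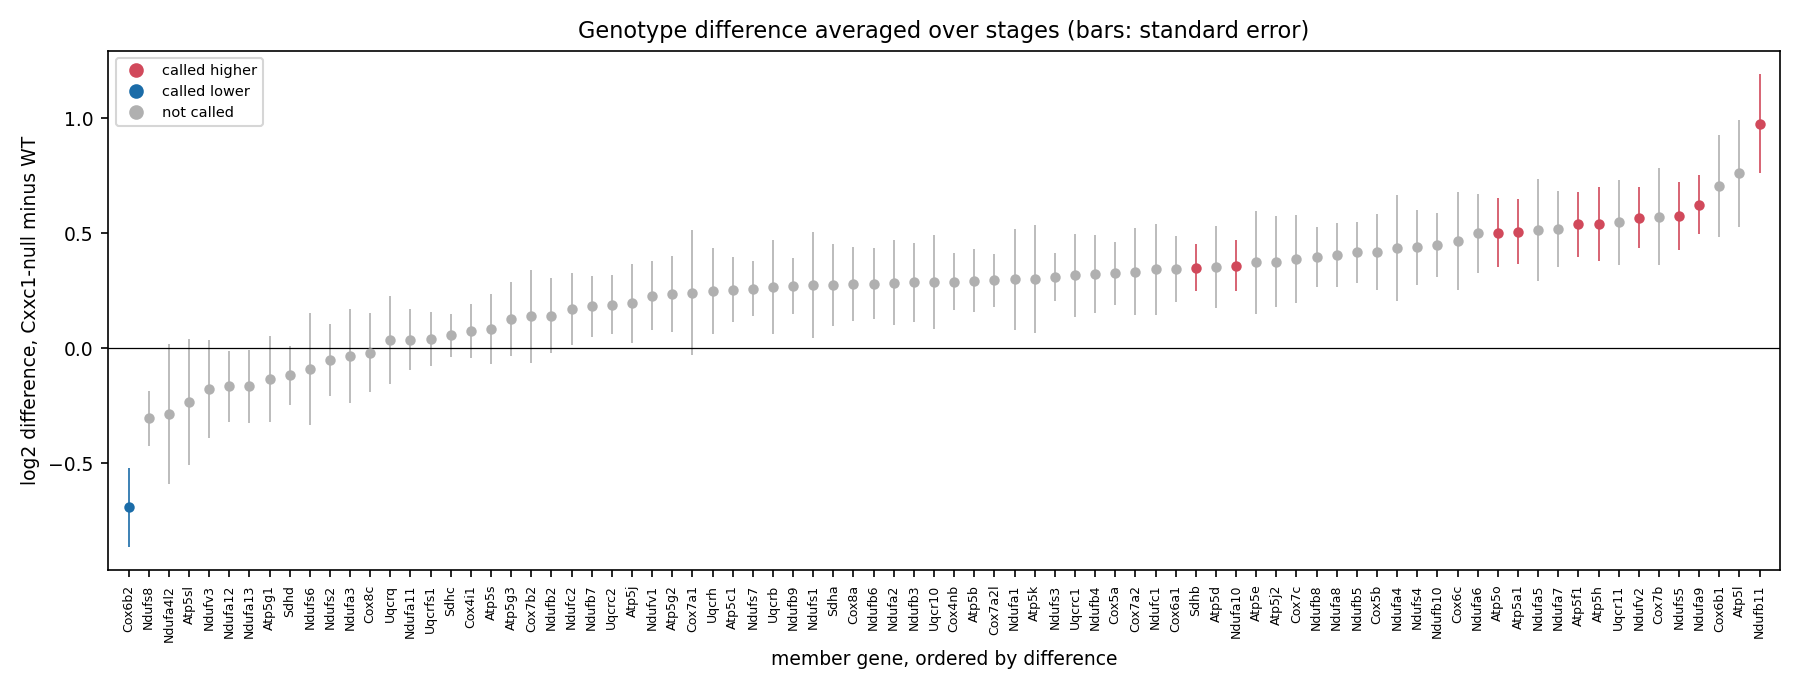
Log2 difference between Cxxc1-null and WT averaged over the 3 stages (y axis, log2(FPKM + 1) scale) for each of the 82 members tested, ordered by size; vertical lines are standard errors and colours mark genes called by limma. Cox6b2, at -0.69, is the 1 gene called lower, and 10 genes from Sdhb at 0.35 to Ndufb11 at 0.98 are called higher.

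Members on the X chromosome, 3 in all, followed different courses. Genes of the X had a median log2 difference of -0.32 from pachytene to diplotene in WT cells and of 2.03 from diplotene to meiosis II, where 365 of 407 tested rose and 1 fell. Ndufb11 and Cox7b rose over the second step, as given above. Ndufa1 did not, with 816 and 309 FPKM in pachytene, 49.7 and 56.2 FPKM in diplotene and 49.9 and 38.1 FPKM in meiosis II of WT cells and a difference of -0.27 ± 0.38, limma adjusted p = 0.599 over the second step. In Cxxc1-null cells it had 456 and 577, 60.4 and 75.4, and 57.3 and 69.6 FPKM at the 3 stages. In pachytene Ndufa1 was far above the other 2 genes, where Ndufb11 had 3.39 and 1.74 FPKM and Cox7b 2.76 and 1.11 FPKM in WT.

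**Figure D5:**
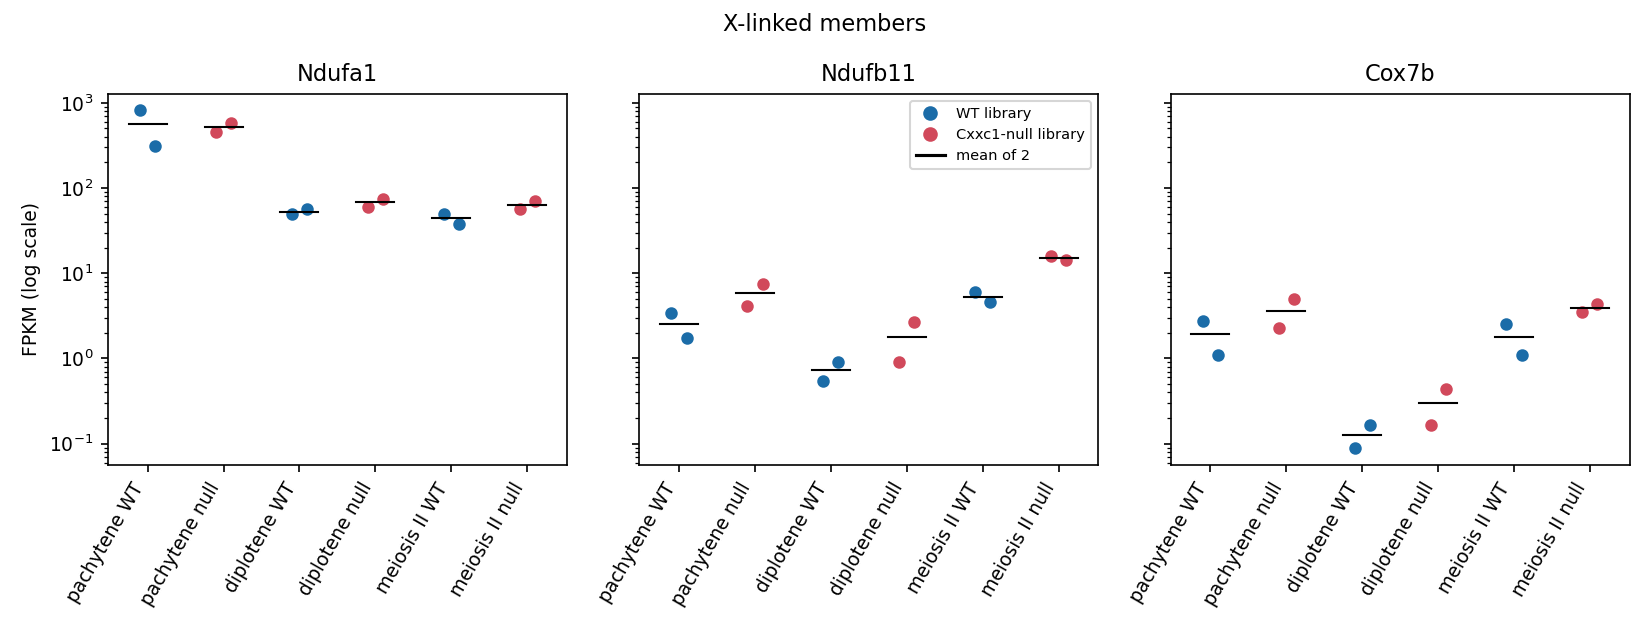
FPKM (y axis, log scale) of the 3 X-linked members in each library, by stage and genotype; points are libraries and lines are means of 2. Ndufb11 and Cox7b are lowest in diplotene in both genotypes, whereas Ndufa1 goes from 816 and 309 FPKM in WT pachytene to 49.9 and 38.1 FPKM in WT meiosis II.

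Of the 5 genes that match by symbol without encoding a subunit, Ndufa4l2, a relative of Ndufa4 known from hypoxia, rose from pachytene to diplotene. It had 4.09 and 19.5 FPKM in pachytene, 33.9 and 55.3 FPKM in diplotene and 62.0 and 90.7 FPKM in meiosis II of WT cells (2.12 ± 0.53, limma adjusted p = 0.0163 for the first step). In Cxxc1-null cells it had 8.81 and 7.88, 40.2 and 48.7, and 49.7 and 38.8 FPKM at the 3 stages (2.28 ± 0.53, limma adjusted p = 0.0128 for the first step). Ndufa4 itself fell over that step, and the order of the 2 genes turned, since Ndufa4 was higher in all 4 pachytene libraries and Ndufa4l2 in 3 of 4 meiosis II libraries, the exception being Cxxc1-null replicate 2. Atp5sl, an assembly factor of complex I, rose in Cxxc1-null cells from 10.1 and 8.20 to 28.3 and 27.4 FPKM (1.51 ± 0.47, limma adjusted p = 0.0378). Cox4nb, named as the neighbour of Cox4i1, fell in WT cells at both steps (-0.65 ± 0.21, limma adjusted p = 0.0472, and -0.77 ± 0.21, limma adjusted p = 0.0136), the first of which passed in none of the 12 fits without 1 library. Atp5s, a coupling factor of the ATP synthase, and Cox7a2l, a factor of supercomplexes, passed in no comparison.

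Cytochrome c, the electron carrier between complexes III and IV, was also mostly of the testis form. Cyct, the testis cytochrome c, had 2879 and 1258 FPKM in pachytene, 744 and 755 FPKM in diplotene and 301 and 321 FPKM in meiosis II of WT cells, and Cycs, the somatic form, 24.8 and 10.1 FPKM in pachytene, 1.84 and 2.13 FPKM in diplotene and 11.2 and 7.46 FPKM in meiosis II. Cyct fell at both steps (-1.34 ± 0.32 and -1.27 ± 0.32 in WT), whereas Cycs fell and then rose (-2.50 ± 0.35 and 1.77 ± 0.35). The summed Sertoli markers were higher after that second step, and their part in the rise of Cycs was not tested. Of 10 tested electron carriers and further subunits, 0 rose and 7 fell from pachytene to diplotene in WT cells, 3 rose and 3 fell at the next step, and the shares were 70.0% lower, then 30.0% each way, against 17.4% lower, then 26.1% higher and 18.9% lower, of all genes. Of these 10 genes 0 passed in limma between genotypes over stages, where 11.5% of all genes tested rose and 5.13% fell. In Cxxc1-null meiosis II Ndufab1, the acyl carrier subunit of complex I, had 70.6 and 76.6 FPKM in WT and 121 and 166 FPKM in Cxxc1-null (0.94 ± 0.25), and Etfa, a subunit of the electron transfer flavoprotein, was the other gene of these 10 that rose (1.33 ± 0.34), a share of 20.0% against 6.14% of all genes. Of 30 assembly factors tested, 0 rose and 11 fell at the first WT step and 2 rose and 12 fell at the second, shares of 36.7% and 40.0% lower against 17.4% and 18.9% of all genes. In Cxxc1-null meiosis II Taco1 (0.75 ± 0.21) and Sdhaf1 (1.00 ± 0.27) rose and Tmem186 (-1.25 ± 0.31) fell, shares of 6.67% higher and 3.33% lower against 6.14% and 4.35%. Between genotypes over stages Taco1 (0.49 ± 0.12), a translational activator of a mitochondrial complex IV subunit, and Sdhaf1 (0.63 ± 0.16), an assembly factor of complex II, rose, and Ndufaf3 (-0.63 ± 0.13), one of complex I, fell by limma, again 6.67% higher and 3.33% lower, against 11.5% and 5.13% of all genes.

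Between genotypes 2 genes of the citric acid cycle and 2 regulators of mitochondrial genes passed over stages. Of 18 tested genes of the cycle, Mdh2 (0.47 ± 0.12), encoding malate dehydrogenase, and Idh3b (0.52 ± 0.11), encoding a subunit of isocitrate dehydrogenase, rose over stages and 0 fell, a share of 11.1% higher against 11.5% of all genes. In WT cells 1 of the 18 rose and 5 fell at the first step (27.8% lower, against 17.4% of all genes), and 4 rose and 4 fell at the second (22.2% each way, against 26.1% higher and 18.9% lower). Of 14 tested regulators 0 rose and 2 fell over stages, Ppargc1a (-0.61 ± 0.11), a coactivator of mitochondrial gene expression, and Polg2 (-0.45 ± 0.13), a subunit of the mitochondrial DNA polymerase, a share of 14.3% lower against 5.13% of all genes. In meiosis II Ppargc1a (-0.84 ± 0.19) and Tfam (-1.24 ± 0.28), a packaging and transcription factor of mitochondrial DNA, fell. That was a share of 14.3% lower, against 4.35% of all genes, and 0 of 14 rose, where 6.14% of all genes did. Of the 13 subunits encoded in mitochondrial DNA, 0 were found among the genes by symbols such as mt-Nd1 and mt-Cytb, so they were not analysed here.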

How the data were processed

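The authors deposited 1 table of FPKM values per gene and library, covering the 12 RNA samples. TopHat2 2.1.1, Cufflinks 2.2.1 and the mm9 build are named, per the submitters' processing notes. Their roles and the number of sequenced fragments are not given in the sources used, so the counting error behind a value is unknown. Strand use is not given either, so fragments of near-identical copies, overlapping genes and antisense genes may be shared, and FPKM of very short genes is sensitive to the length model.

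Groups followed the labels. Values were used as log2(FPKM + 1). The 12956 genes that reached 1 FPKM in 2 or more libraries entered 1 linear model of 6 group means in limma 3.58.1 (R 4.3.3, empirical Bayes with trend, 6 residual degrees of freedom), with Benjamini-Hochberg adjustment over all genes and a threshold of 0.05. Fold changes on this scale understate the change of low genes. Contrasts were Cxxc1-null minus WT at each stage and averaged over stages, the stage steps in each genotype, and the genotype by stage interaction (F test). The procedure was also run on simulated data with independent noise for each gene, which lack the shifts that members share within a library. Genes are named where they are isoform partners, X-linked, symbol matches that are no subunits, highest in their complex, called between genotypes (up to 8 in each direction) or among the 4 called with the largest change in each direction at a stage step. Others named in lists of counts, among them Sdhc, Uqcrc2, Ndufs8 and Sdhd, were chosen after their values were seen. Members, gene lists and tests were chosen with earlier results of these data known. Alternatives were another pseudocount, 2 other filters, 3 other scalings, the replicate number as a block, each library left out, both libraries that stand apart left out (WT pachytene replicate 2 and Cxxc1-null diplotene replicate 2), separate fits, subunits alone and, for the stage average, stages joined by replicate number. The replicate numbers were not taken to pair samples. Promoter sequences are from RefSeq on GRCm38.p6.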

Additional observations from a re-analysis of the deposited data

How the results depend on the processing

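Counts are members called by limma. Between genotypes in pachytene 0 passed under every alternative run, and in diplotene 1 passed under quantile normalization and 0 otherwise. In meiosis II the count of 3 became 0 with a pseudocount of 0.1, 0 with at least 5 FPKM, 13 with quantile normalization, 1 with a common median, 6 with the replicate block and 0 in a separate fit, and lay between 0 and 8 without 1 library. Over stages the count of 11 became 19 with quantile normalization (16 higher, 3 lower), 4 with a common median (3 higher, 1 lower), 18 with the replicate block, 3 without both libraries that stand apart and 0 with stages joined, and lay between 2 and 30 without 1 library. The 24 calls from WT pachytene to diplotene became 14 without a filter, 13 with a common median, 41 without both libraries that stand apart and 0 in a separate fit (5 to 46 without 1 library). The 28 from WT diplotene to meiosis II became 49 with a common median (15 to 41 without 1 library). The 30 of the first Cxxc1-null step became 18 without a filter and 19 with a common median (3 to 45 without 1 library), and the 18 of the second lay between 10 and 21 without 1 library. For the interaction 0 passed in every fit. The cause of these shifts was not tested. Of 2388 refits of 114 single calls, 1830 kept the call and 558 lost it. That 0 changed sign was fixed beforehand for many of them. Another filter, the block, a separate fit or leaving out a library of a group not compared does not alter the difference. Same-numbered libraries of the 2 genotypes deviated with r of -0.066 in pachytene, 0.321 in diplotene and 0.109 in meiosis II across genes. Because r was over 0.1 in diplotene and meiosis II but not in pachytene, the replicate number was not used to pair samples. The replicate block is given as an alternative only. The check set genotypes against each other within a stage. It cannot show whether same-numbered libraries of a genotype share a mouse across stages. Groups of 2 libraries and the unknown fragment depth limit what could be detected.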
